A study of Mus musculus with 8 samples.

Results

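The TRAJ segments, the joining (J) segments of the T-cell receptor (TCR) α-chain, were examined in 8 C57BL/6 mice bearing B16F10 melanoma, in their own CD8+ T cells (endogenous T, en-T). All J names that begin with TRAJ in the 8 α-chain libraries were taken and ordered by number. Of 56 J segment names in both chains, 44 were in the α-chain libraries, and 43 of these were TRAJ segments. The remaining name was TRDJ1, a δ-chain segment, with 3 reads in all. The 43 segments held 79997 reads and 53246 clonotypes, and all 43 were present in every mouse.

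Female mice 6 to 8 weeks old were injected in the skin with 200000 B16F10 melanoma cells. On day 3 every mouse was lymphodepleted with cyclophosphamide (CTX) at 300 mg/kg. On day 5 they received 2000000 Pmel-1 cells, transgenic CD8+ T cells that recognize the melanoma antigen gp100, and IL-2 at 10000 IU was given daily for 3 days. The CTXpre group (3 mice) received nothing further. The CTXpre/CD4post group (5 mice) was also given 200 μg of the anti-CD4 antibody GK1.5 weekly from day 10 for 3 weeks. On day 25 en-T cells, negative for the Thy1.1 marker of the transferred cells, were sorted from inguinal lymph nodes and spleen. No mouse without cyclophosphamide or without Pmel-1 cells was among the samples, so both groups share these treatments. The comparison between groups therefore asks whether anti-CD4 treatment after transfer was accompanied by a different use of the TRAJ segments.

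The α-chain gene is assembled in the thymus by joining a TRAV segment to a TRAJ segment. TRAJ segments lie in a long array between the V segments and the constant segment TRAC, with high numbers on the V side and low numbers on the TRAC side. Rearrangement is known to begin at the V side of the array and to move toward TRAC when a cell rearranges the same allele again, each time with a V segment farther away. Each J segment is preceded by a recombination signal, a heptamer and a nonamer with a spacer between them, which the RAG recombinase cuts. The J segment then forms the end of the CDR3, the loop that contacts peptide, up to a phenylalanine or tryptophan.

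The 60 TRAJ segments annotated in GRCm38 lie at chr14:54155005-54218842 on the plus strand, a span of 63.8 kb that ends before TRAC at chr14:54220521-54224206. Of these, 17 had no read. The annotation holds no TRAJ10. Germline sequences of a few segments are given from GRCm38, 5′ to 3′ on the plus strand, each from the start of its best-matching recombination signal to the annotated end of the segment. Capitals mark the heptamer, which is followed by the coding bases. The 3 segments with the most reads are shown.
TRAJ22, chr14:54197220-54197307: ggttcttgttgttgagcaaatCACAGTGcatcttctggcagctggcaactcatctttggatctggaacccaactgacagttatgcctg
TRAJ30, chr14:54189838-54189924: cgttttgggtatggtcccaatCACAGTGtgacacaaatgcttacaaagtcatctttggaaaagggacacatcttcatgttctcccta
TRAJ26, chr14:54194462-54194549: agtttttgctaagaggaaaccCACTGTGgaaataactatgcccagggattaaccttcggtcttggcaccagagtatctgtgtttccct
The 3 used segments with the fewest reads are shown next, with TRAJ4, the segment whose number of clonotypes passed the edgeR test between the groups.
TRAJ2, chr14:54217808-54217901: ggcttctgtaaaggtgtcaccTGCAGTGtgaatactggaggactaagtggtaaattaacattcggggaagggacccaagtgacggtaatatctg
TRAJ35, chr14:54183746-54183838: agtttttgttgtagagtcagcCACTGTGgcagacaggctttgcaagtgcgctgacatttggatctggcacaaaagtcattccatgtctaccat
TRAJ5, chr14:54213749-54213838: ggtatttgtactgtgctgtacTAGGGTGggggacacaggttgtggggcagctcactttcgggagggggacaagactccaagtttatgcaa
TRAJ4, chr14:54216263-54216353: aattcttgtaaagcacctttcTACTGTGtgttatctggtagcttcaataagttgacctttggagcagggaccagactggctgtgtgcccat
The last set holds 4 segments with no read, chosen because each keeps a part of what the used segments have: a heptamer CACTGTG (TRAJ41), a heptamer ending in GTG (TRAJ46) or a codon for phenylalanine in the usual motif (TRAJ46, TRAJ25 and TRAJ54).
TRAJ54, chr14:54161961-54162043: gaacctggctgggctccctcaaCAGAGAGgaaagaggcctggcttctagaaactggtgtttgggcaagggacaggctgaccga
TRAJ46, chr14:54172308-54172398: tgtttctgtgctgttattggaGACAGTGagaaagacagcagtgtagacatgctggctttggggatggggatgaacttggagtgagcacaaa
TRAJ41, chr14:54176242-54176325: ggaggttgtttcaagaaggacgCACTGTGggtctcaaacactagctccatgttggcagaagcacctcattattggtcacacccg
TRAJ25, chr14:54194788-54194871: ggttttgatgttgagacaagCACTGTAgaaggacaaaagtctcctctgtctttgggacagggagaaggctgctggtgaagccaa

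Each α-chain library held 10000 reads and 5043 to 7695 clonotypes, of which 68.0% to 84.0% were seen in 1 read. No molecular identifiers marked the PCR reads, and intervals and limits of detection therefore describe counting error alone. With 10000 reads, TRAJ22 in CTXpre mouse 1 had 658 reads, 6.58%, with a Wilson 95% interval of 6.11% to 7.08%. TRAJ2 in the same mouse had 35 reads, 0.35%, with an interval of 0.252% to 0.486%. Libraries of the CTXpre/CD4post mice 1 and 2 shared clonotypes. Of the 100 most abundant clonotypes of mouse 1, 73 were absent from the 6 further mice, and 34 of these 73 were in mouse 2. In the reverse direction it was 3 of 59, and the highest number among the further 55 ordered pairs of mice was 7. The source of the shared clonotypes was not tested, and comparisons were repeated without each of these mice. CTXpre/CD4post mouse 5 had 102 clonotypes of 10 or more reads, which held 25.9% of its reads. The mouse is the replicate throughout, and p-values of the exact tests measure the spread between these mice. In edgeR the spread of a segment is estimated in part from the other segments.

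The 17 segments with no read were TRAJ61, TRAJ60, TRAJ59, TRAJ55, TRAJ54, TRAJ51, TRAJ46, TRAJ41, TRAJ36, TRAJ29, TRAJ25, TRAJ20, TRAJ19, TRAJ14, TRAJ8, TRAJ3 and TRAJ1. A count of 0 allows a share of up to 0.03% of a library and of up to 0.00375% of the 8 libraries. Of the 17, 9 are annotated as pseudogenes and 8 as J segments, whereas all 43 used segments are annotated as J segments. By block, 8 of the 22 segments from TRAJ40 up had no read, against 4 of 20 from TRAJ20 to TRAJ39 and 5 of 18 under TRAJ20. No CDR3 among the 53246 clonotypes held any 15 bases in a row of the germline sequence of an unused segment. The J reference against which the reads were aligned is not given in the sources used here, so a segment left out of that reference would also show 0 reads.

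Used and unused segments differed in their germline sequence. All 43 used segments had a heptamer ending in GTG, the bases next to the cut, against 6 of the 17 unused. Over the 16 bases of the heptamer CACTGTG and the nonamer GGTTTTTGT, used segments matched at a median of 13 (11 to 16) and unused segments at 10 (7 to 14). The best match of every used segment had a spacer of 12 bases. In the 60 bases before the coding part, plus strand, the exact heptamer CACTGTG stood in 14 of 43 used and 2 of 17 unused segments, 26.7% of all 60. The exact nonamer stood in 3 used and 1 unused segment, 6.67% of all 60. TRAJ34 matched at all 16 bases. The heptamers of TRAJ41 and TRAJ29 are complete. The best-matching nonamer of TRAJ41 matches at 6 of 9 bases, with a spacer of 13, and that of TRAJ29 at 5 of 9, with a spacer of 11. Used segments also had such nonamers, with 6 matches in TRAJ30 and 5 in TRAJ15 and TRAJ6. In all, TRAJ41 matches at 13 and TRAJ29 at 12 of the 16 bases, within the range of the used segments. TRAJ25 has the heptamer CACTGTA and TRAJ54 an in-frame stop codon. These are descriptions of sequence, and whether they bear on use was not tested. Among the 43 used segments, the number of matching bases and the mean share of reads had a correlation across segments of 0.19. Segments share the 8 libraries and are not independent, and no test was made.

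The codons for the CDR3 end and the glycines after it, which form the conserved F/W-G-X-G motif, were complete in 41 of 43 used and 3 of 17 unused segments. In TRAJ44 and TRAJ7 the codon is TTG, and all of their CDR3s ended in leucine. TRAJ33 and TRAJ38 ended in tryptophan in 100% and 99.8% of their clonotypes, and the other used segments in phenylalanine. The CDR3s of 99.7% of clonotypes ended in at least 9 germline bases of the J segment they were assigned to. The lowest segment was at 99.2%.

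TRAJ22 was the most used segment, with 6.39% ± 0.37 of the reads (SD, n = 8 mice). Its shares were 6.58%, 6.11% and 6.61% in the CTXpre mice and 5.93%, 6.76%, 6.84%, 6.40% and 5.88% in the CTXpre/CD4post mice. It varied least among the 43, with a coefficient of variation over mice of 5.84%. TRAJ30 followed with 5.12% ± 0.58, TRAJ26 with 4.98% ± 0.54, TRAJ23 with 4.65% ± 0.40, TRAJ31 with 4.33% ± 0.49 and TRAJ49 with 4.03% ± 0.34. These 6 segments held 29.5% ± 1.5 of the reads, and 5 of them lie between TRAJ22 and TRAJ31. The leading 10 held 42.3% ± 0.85. By clonotypes the order of the leading 3 was TRAJ22 (5.59% ± 0.31), TRAJ26 (4.77% ± 0.28) and TRAJ30 (4.63% ± 0.32).

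TRAJ2, the used segment closest to TRAC, was the least used, with 0.511% ± 0.226 of the reads. Its shares were 0.35%, 0.52% and 0.36% in the CTXpre mice and 0.42%, 0.33%, 0.76%, 0.40% and 0.95% in the CTXpre/CD4post mice. TRAJ35 had 0.575% ± 0.130, TRAJ5 0.641% ± 0.138, TRAJ28 0.771% ± 0.108, TRAJ38 0.840% ± 0.189 and TRAJ44 1.05% ± 0.21. The 6 together held 4.39% ± 0.21 of the reads. The mean share of TRAJ22 was 12.5 times that of TRAJ2. TRAJ35 and TRAJ28 lie in the middle of the array, and their nearest used neighbors had more reads. Distance to TRAC and mean share had a correlation of -0.02 across the 43 segments, a description without a test. TRAJ35 has the heptamer CACTGTG and 15 matches of 16, more than TRAJ22, TRAJ30 or TRAJ31.

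The order was more stable over a distance of several ranks than between neighbors. Of the 42 pairs of segments adjacent in rank, 0 had the same order in all 8 mice. TRAJ22 was above TRAJ30 in 7 of 8 mice, by a mean of 1.27 percentage points. TRAJ49 was above TRAJ12, the next in rank, in 7 of 8 mice, by a mean of 0.78 percentage points. Differences between neighbors were not tested. Of all 903 pairs of segments, 636 had the same order in every mouse (70.4%). TRAJ22 was above 40 of the 42 further segments in all mice and TRAJ49 above 32. The coefficient of variation over the mice had a median of 15.04% for reads and of 9.98% for clonotypes. It was highest for TRAJ2 (44.2%), TRAJ4 (41.2%) and TRAJ11 (35.5%). At the borders between the blocks, TRAJ40 had 3.11% ± 0.21 and TRAJ39 2.07% ± 0.47 of the reads, and TRAJ20 and TRAJ19 had none. The nearest used segments on either side of the lower border were TRAJ21 with 3.21% ± 0.50 and TRAJ18 with 1.53% ± 0.28.

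**Figure D1:**
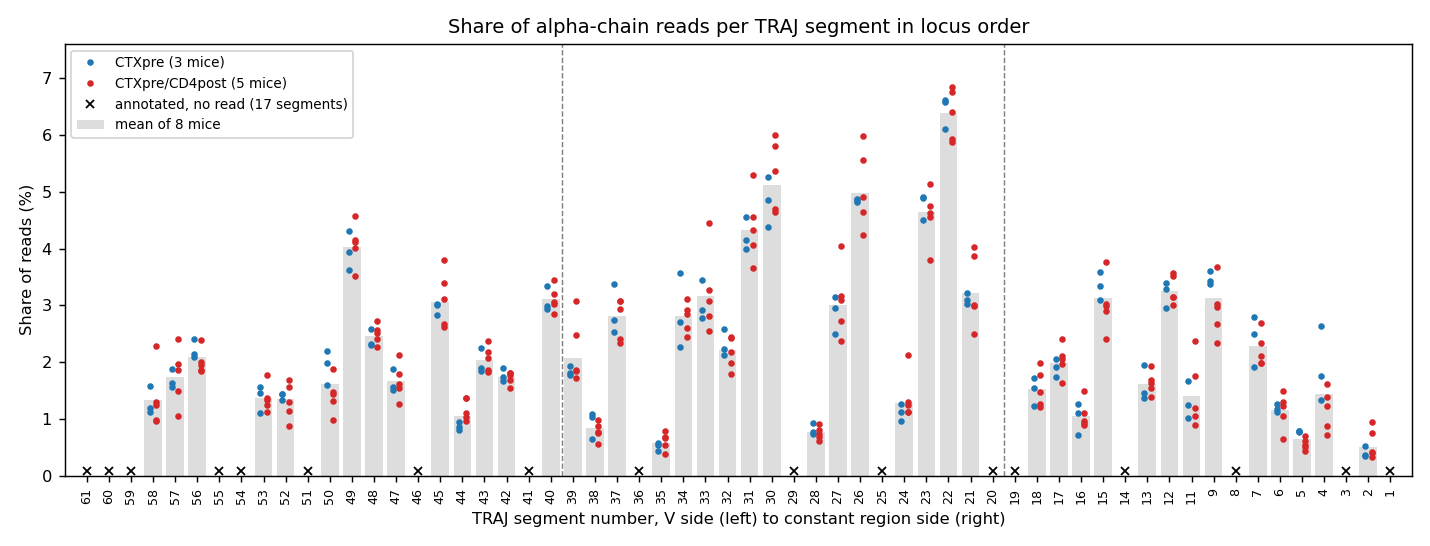
Share of α-chain reads (%) of each annotated TRAJ segment in locus order, with the V side on the left. Gray bars are means of 8 mice, points are mice, crosses mark the 17 segments with no read, and dashed lines are the block borders; the highest bars stand at TRAJ22, TRAJ30 and TRAJ26.

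By block, TRAJ20 to TRAJ39 held 48.2% ± 1.57 of the reads (SD, n = 8 mice) with 16 used segments. The V-side block from TRAJ40 up held 28.6% ± 1.14 with 14, and the TRAC-side block under TRAJ20 held 23.1% ± 2.57 with 13. In clonotypes the shares were 47.3% ± 0.78, 30.0% ± 1.56 and 22.7% ± 2.07. The median used segment had a mean share of 2.91% in the middle block, 1.74% in the V-side block and 1.53% in the TRAC-side block. The middle block had the largest share in all 8 mice, from 45.9% to 50.2% of the reads.

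Use of the array differed with the V segment. TRAV1 and TRAV2 lie farthest from the J segments, with TRAV1 at chr14:52427928-52428876. TRAV17 to TRAV21 lie nearest, with TRAV21-DV12 at chr14:53875984-53876752. The mean TRAJ number of a clonotype was 23.4 ± 0.97 with TRAV1 or TRAV2 (448 clonotypes) and 47.2 ± 0.75 with TRAV17 to TRAV21 (2559 clonotypes; SD, n = 8 mice). The difference was -23.8 ± 1.47. It was below 0 in 8 of 8 mice, from -25.7 to -21.3 (exact two-sided sign-flip test, p = 0.0078, the smallest possible with 8 mice). Counted over all reads, without abundant clonotypes, without clonotypes of 1 read, or with TRAV1 alone against TRAV21 alone, the difference kept its direction and its p.

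With TRAV17 to TRAV21, 80.8% ± 2.40 of the clonotypes used TRAJ40 or above, 17.2% ± 2.24 used TRAJ20 to TRAJ39 and 2.03% ± 0.96 used a segment under TRAJ20. With TRAV1 and TRAV2 the same shares were 3.37% ± 2.49, 66.0% ± 6.37 and 30.6% ± 5.02. TRDV1, a δ-chain V segment that lies still nearer to the J segments at chr14:53881612-53882217, had 87.0% ± 5.56 of its 299 clonotypes in TRAJ40 or above. The 3 outermost used segments show the contrast most directly. TRAJ56, TRAJ57 and TRAJ58 made up 30.6% ± 2.85 of the clonotypes with TRAV17 to TRAV21. With TRAV1 and TRAV2 they made up 0 of 448 clonotypes, which allows a share of up to 0.67%. Over all V segments their share was 5.23% ± 0.50. In the other direction, TRAV17 to TRAV21 had 0 clonotypes with TRAJ7 or TRAJ5, where 0 of 2559 allows up to 0.117%. TRAJ23 was the segment most often joined to TRAV1 and TRAV2, with 9.79% ± 4.26 of their clonotypes, and TRAJ56 the one most often joined to TRAV17 to TRAV21, with 12.2% ± 1.04.

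Seen from the segments, TRAV17 to TRAV21 supplied 29.6% ± 3.04 of the clonotypes of TRAJ57, 10.8% ± 2.00 of TRAJ49, 4.36% ± 1.24 of TRAJ40 and 0.94% ± 0.75 of TRAJ22. Of 25 V families, 15 had at least 50 clonotypes in every mouse. Among these the lowest mean TRAJ numbers were those of TRAV8 (26.0 ± 0.81), TRAV12 (27.6 ± 1.01) and TRAV7 (27.7 ± 0.57). The highest were those of TRAV19 (48.0 ± 0.91), TRAV17 (44.6 ± 1.55) and TRAV5 (36.3 ± 0.88). Most families have duplicated copies spread over the V array, so their means combine positions. The families' means were higher in the CTXpre/CD4post than in the CTXpre group in 12 of 15, a count over mice that the families share and that was not tested.

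**Figure D2:**
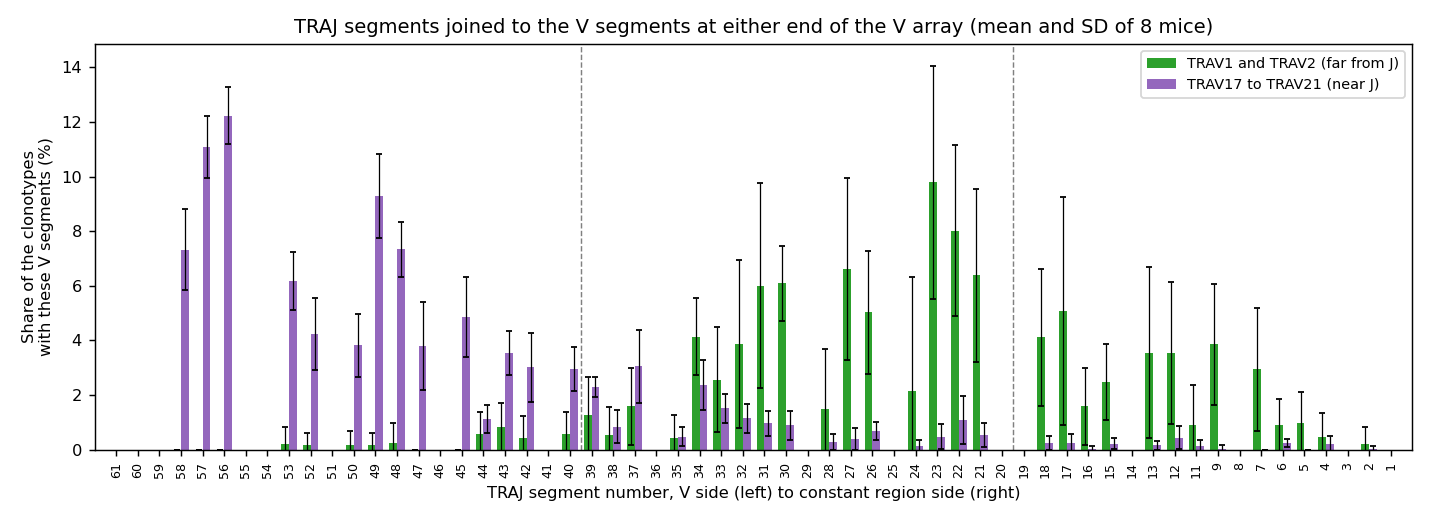
Share (%) of the clonotypes with TRAV1 or TRAV2 (green) and with TRAV17 to TRAV21 (purple) that were joined to each TRAJ segment, in locus order. Bars are means and lines SDs of 8 mice, drawn down to 0 at most; the purple bars stand mostly left of the upper border and the green bars mostly right of it.

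The blocks did not show a difference between the groups that exceeded the spread between mice. TRAJ40 and above held 29.71%, 27.503% and 28.50% of the reads in the CTXpre mice and 28.34%, 29.87%, 26.70%, 28.61% and 29.80% in the CTXpre/CD4post mice. The groups overlapped, with means of 28.6% ± 1.11 and 28.7% ± 1.29 (exact two-sided Mann–Whitney test, p = 0.786). TRAJ20 to TRAJ39 held 47.4% ± 1.01 and 48.7% ± 1.73 (exact test, p = 0.393). Segments under TRAJ20 held 21.77%, 25.93% and 24.39% of the reads in the CTXpre mice and 21.81%, 20.89%, 27.40%, 23.01% and 19.96% in the CTXpre/CD4post mice. The highest value was that of CTXpre/CD4post mouse 3, and the 4 further mice of its group were below 2 of the 3 CTXpre mice. The means were 24.0% ± 2.10 and 22.6% ± 2.90 (exact test, p = 0.571).

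In clonotypes the TRAC-side block held 23.7% ± 1.72 in the CTXpre group and 22.1% ± 2.22 in the CTXpre/CD4post group (exact test, p = 0.25). The V-side block held 29.5% ± 1.19 and 30.3% ± 1.82 (exact test, p = 0.571), and the middle block 46.8% ± 0.54 and 47.6% ± 0.79 (exact test, p = 0.25). The adjusted p over these 6 exact tests lay between 0.686 and 0.786. With 3 mice against 5 the smallest possible p of the exact test is 0.0357. The mean TRAJ number of a clonotype was 30.3 ± 0.63 in the CTXpre and 30.8 ± 0.86 in the CTXpre/CD4post group (exact Mann–Whitney test, p = 0.393). The difference between the V ends was -24.6 ± 1.43 in the CTXpre group and -23.3 ± 1.37 in the CTXpre/CD4post group (exact Mann–Whitney test, p = 0.25). Without CTXpre/CD4post mouse 2, the groups still overlapped in all 6 block shares. Without mouse 3, the clonotype shares under TRAJ20 did not overlap, at a difference of -2.52 percentage points against -1.54 with it (exact Mann–Whitney test, p = 0.0571, the smallest possible with 3 mice against 4). Without CTXpre mouse 2 the same difference was -0.778, and without CTXpre mouse 1 it was -2.47. For reads under TRAJ20 the difference of -1.42 percentage points became -0.465 without CTXpre mouse 2, -0.752 without CTXpre/CD4post mouse 5, -2.55 without CTXpre mouse 1 and -2.61 without CTXpre/CD4post mouse 3.

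**Figure D3:**
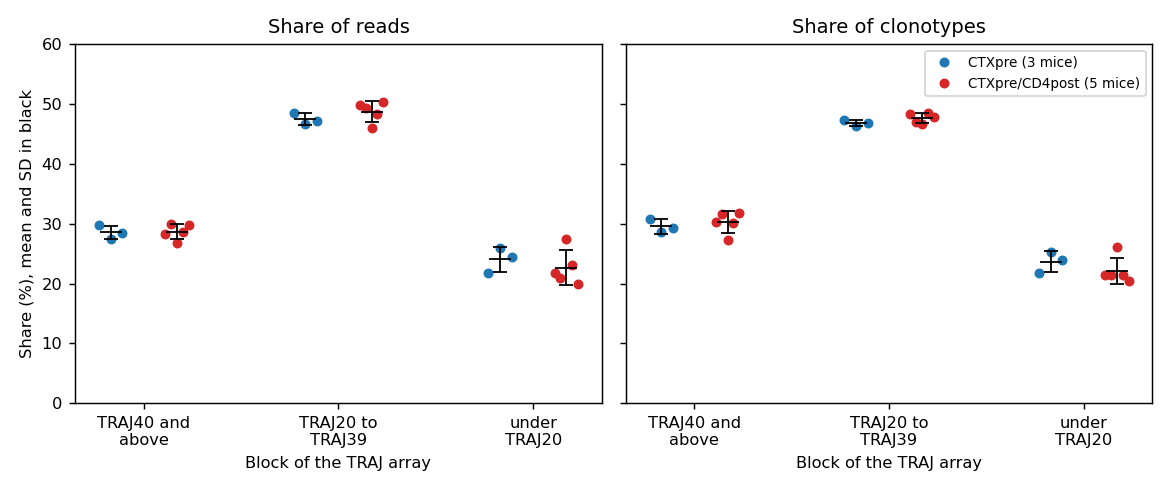
Share (%) of reads (left) and of clonotypes (right) in each block of the TRAJ array. Points are mice, and black lines are the mean and SD of each group; the groups overlap in all 6 comparisons, and 1 red point, CTXpre/CD4post mouse 3, stands above its group under TRAJ20.

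By segment, edgeR's quasi-likelihood test found 0 of 43 segments with changed reads (Benjamini-Hochberg adjusted p under 0.05), 0% higher and 0% lower in the CTXpre/CD4post group. At an unadjusted p under 0.05 there were 3 with edgeR and 4 with DESeq2, and DESeq2 also called 0 after adjustment. In clonotypes, edgeR called 1 of 43 segments lower, 2.33%, and 0 higher, 0%, and DESeq2 called 0, with 2 at an unadjusted p under 0.05. In reads, 26 segments had a fold change above 1 and 17 below, with a median log2 fold change of 0.04. In clonotypes it was 22 and 21. All log2 fold changes here are of CTXpre/CD4post over CTXpre.

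The called segment was TRAJ4, which lies 4168 bases before TRAC. It held 1.40%, 2.06% and 1.85% of the clonotypes in the CTXpre mice and 1.01%, 1.34%, 1.81%, 1.20% and 1.01% in the CTXpre/CD4post mice. Of the latter, 4 were below all CTXpre mice, and mouse 3 overlapped them. In edgeR, TRAJ4 clonotypes fell by 0.47 ± 0.14 on the log2 scale (SE; edgeR, adjusted p = 0.0314). DESeq2 gave a log2 fold change of -0.47 with an adjusted p of 0.63. In edgeR the call was lost at a log2 fold change of -0.46 without clonotypes of 10 or more reads (adjusted p = 0.0948) and of -0.74 without clonotypes of 1 read (adjusted p = 0.472). It was also lost when 6 of the 8 mice were left out in turn. These were CTXpre mice 2 and 3 and CTXpre/CD4post mice 1, 2, 4 and 5, with log2 fold changes of -0.48 to -0.33 and adjusted p from 0.0906 to 0.765 for TRAJ4. Without CTXpre/CD4post mouse 3, edgeR called 3 segments, all lower: TRAJ4, TRAJ5 and TRAJ9, the last at -0.26 ± 0.08 on the log2 scale (adjusted p = 0.028). Without CTXpre mouse 1 it called TRAJ4 only. In reads TRAJ4 held 1.33%, 2.64% and 1.75% in the CTXpre mice and 0.88%, 1.23%, 1.61%, 1.38% and 0.71% in the CTXpre/CD4post mice, a log2 fold change of -0.71 ± 0.25 (edgeR, adjusted p = 0.471). In CTXpre mouse 2, which had the highest value, 1 clonotype with TRAV1 supplied 60 of the 264 TRAJ4 reads (22.7%).

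TRAJ5, 6683 bases before TRAC, had the next largest fall in reads. It held 0.77%, 0.79% and 0.78% in the CTXpre mice and 0.44%, 0.50%, 0.70%, 0.54% and 0.61% in the CTXpre/CD4post mice, and the groups did not overlap. The log2 fold change was -0.48 ± 0.23 (edgeR, adjusted p = 0.657), and in clonotypes -0.53 ± 0.20 (edgeR, adjusted p = 0.146), with overlap. TRAJ50, in the V-side block, held 1.59%, 1.99% and 2.19% against 1.47%, 1.88%, 0.99%, 1.32% and 1.44% of the reads, a log2 fold change of -0.43 ± 0.20 (edgeR, adjusted p = 0.657).

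The 3 largest increases in reads did not pass the test either. TRAJ2 had a log2 fold change of 0.48 ± 0.33 (edgeR, adjusted p = 0.93), with 2 of 5 CTXpre/CD4post mice above the CTXpre mice. TRAJ44, the V-side segment that ends in leucine, held 0.85%, 0.81% and 0.94% in the CTXpre mice and 1.36%, 1.37%, 1.03%, 0.97% and 1.10% in the CTXpre/CD4post mice. The groups did not overlap in reads or in clonotypes, and the log2 fold changes were 0.43 ± 0.22 (edgeR, adjusted p = 0.67) and 0.25 ± 0.16 (edgeR, adjusted p = 0.678). Groups did not overlap in 2 of 43 segments for reads, 4.65% of those compared, and in 1 of 43 for clonotypes, 2.33%. TRAJ24 had a log2 fold change of 0.30 ± 0.24 in reads (edgeR, adjusted p = 0.93) and -0.04 ± 0.16 in clonotypes. Its highest value, 2.13% in CTXpre/CD4post mouse 5, came with 1 clonotype of 138 reads, 64.8% of the TRAJ24 reads of that mouse.

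**Figure D4:**
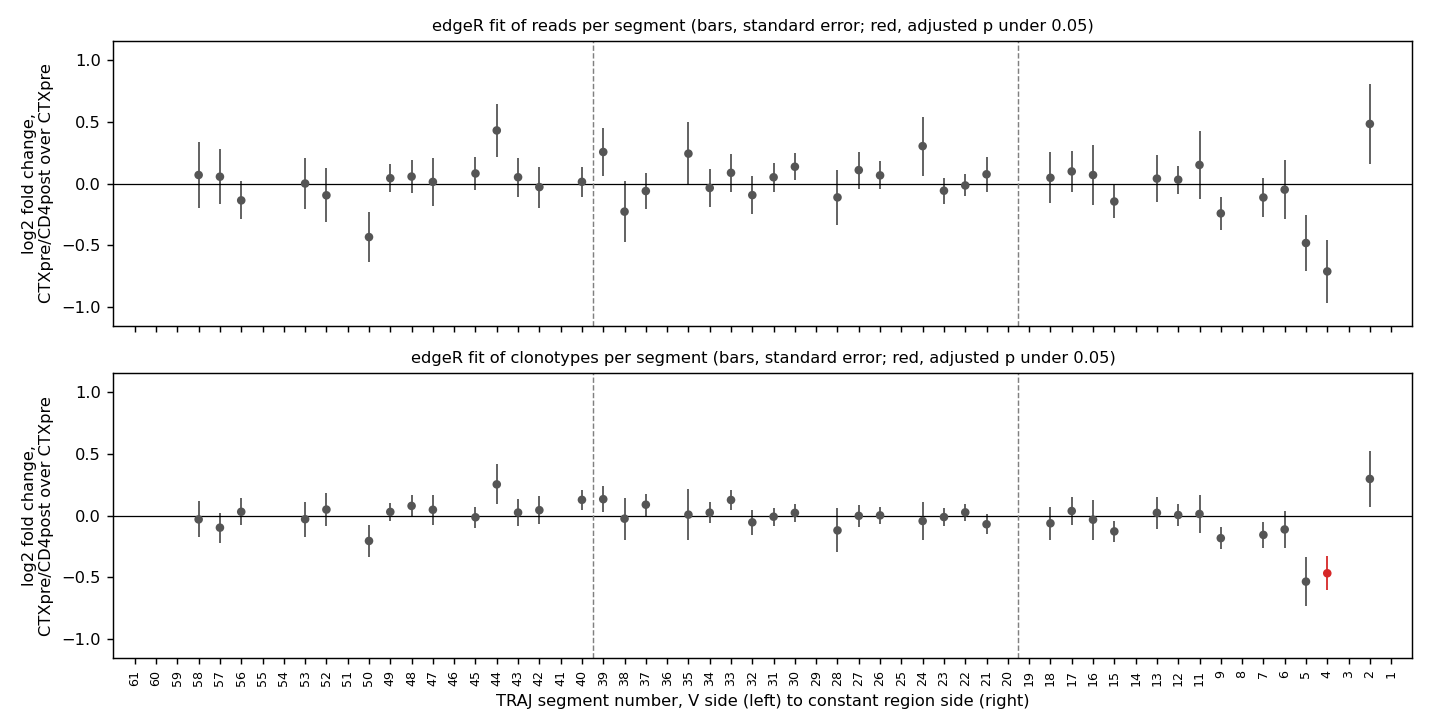
log2 fold change (CTXpre/CD4post over CTXpre) of reads (top) and clonotypes (bottom) for the 43 used TRAJ segments in locus order. Points are edgeR estimates and lines standard errors; the only segment with an adjusted p under 0.05 is TRAJ4 in clonotypes (red), and the estimates lie between -0.71 and 0.48 for reads.

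TRAJ18 and TRAJ33 are known from invariant receptors, TRAJ18 with TRAV11 in natural killer T cells and TRAJ33 with TRAV1 in mucosal-associated invariant T cells. The sort was for CD8+ cells, and both pairs were rare. TRAV11 with TRAJ18 had 5, 10 and 4 reads in the CTXpre mice and 25, 10, 24, 2 and 3 in the CTXpre/CD4post mice (exact Mann–Whitney test, p = 0.839). TRAV1 with TRAJ33 had 1, 2 and 2 reads and 6, 4, 1, 4 and 0 (exact Mann–Whitney test, p = 0.643). With 10000 reads, a count of 0 allows up to 0.03%. TRAJ18 without TRAV11 had 118 to 174 reads per mouse, and TRAJ33 without TRAV1 had 254 to 439. The highest TRAJ33 value, in CTXpre/CD4post mouse 1, held 1 clonotype with TRAV7D-4 of 121 reads.

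CDR3 length differed between J segments. Germline TRAJ segments can contribute from 26 bases (TRAJ31, TRAJ33 and others) to 35 bases (TRAJ2, TRAJ18, TRAJ32, TRAJ52 and TRAJ53) to the CDR3. The mean CDR3 length ranged from 12.4 ± 0.06 amino acids for TRAJ31 to 15.4 ± 0.26 for TRAJ2 (SD, n = 8 mice). Across the 43 segments, length and germline bases had a correlation of 0.94, and the segments share the libraries. The part of the CDR3 that did not match germline J was much the same for all segments, from 13.98 to 15.35 bases on average. Trimming differed. Counted from the CDR3 end to the last matching base, the segments lacked a mean of 1.16 bases for TRAJ11 to 5.31 bases for TRAJ39, with a median of 2.94. TRAJ11 was complete in 48.2% and TRAJ22 in 40.7% of clonotypes, against 4.02% for TRAJ18. Added bases that match the germline by chance count as germline here.

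As an example, the most abundant TRAJ22 clonotype (65 reads, CTXpre mouse 3, TRAV14N-1) kept all 29 germline bases, whereas the most abundant TRAJ4 clonotype (60 reads, CTXpre mouse 2, TRAV1) lacked 6 of 32. In the CDR3s, capitals mark the germline J bases, which can be found after the heptamers of TRAJ22 and TRAJ4 given above.
TRAJ22 CDR3: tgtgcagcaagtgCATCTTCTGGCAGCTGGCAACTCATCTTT
TRAJ4 CDR3: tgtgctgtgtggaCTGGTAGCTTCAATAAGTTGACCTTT
By block, the mean CDR3 length was 13.98 ± 0.03 amino acids for TRAJ40 and above, 13.49 ± 0.03 for TRAJ20 to TRAJ39 and 13.60 ± 0.05 under TRAJ20. The groups overlapped in each block (exact Mann–Whitney tests, p = 1, p = 0.143 and p = 0.786).

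**Figure D5:**
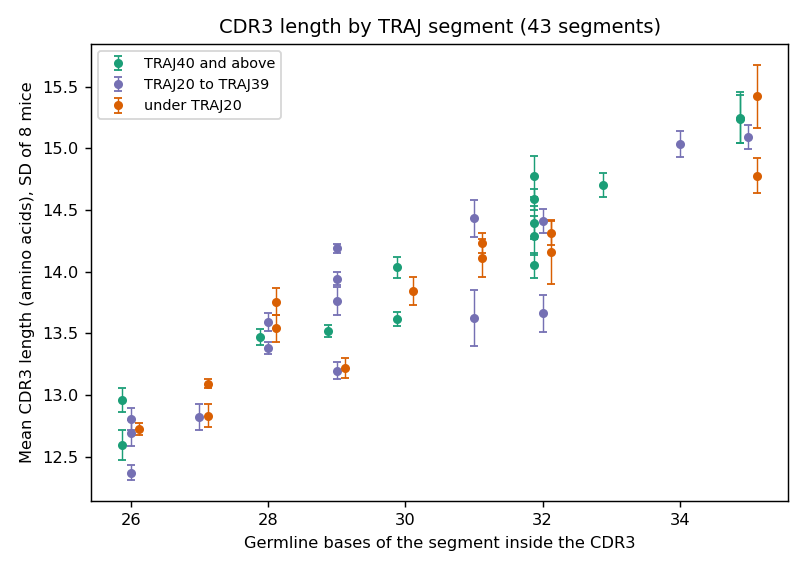
Mean CDR3 length (amino acids) of each used TRAJ segment against the germline bases it can contribute to the CDR3. Points are means and lines SDs of 8 mice, colored by block and set slightly apart; length increases from 12.4 amino acids for TRAJ31 to 15.4 for TRAJ2.

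Clonotypes of 10 or more reads held 2.42% to 2.95% of the reads in the CTXpre mice and 3.69% to 25.9% in the CTXpre/CD4post mice. They were present in 19 of 43 segments in the CTXpre group and in 41 of 43 in the CTXpre/CD4post group, which also has more mice. The segments had 1.29 ± 0.16 reads per clonotype (TRAJ52) to 1.83 ± 1.04 (TRAJ24) on average (SD, n = 8 mice). TRAJ24 ranged from 1.30 to 4.35 over the mice, with the clonotype of 138 reads in CTXpre/CD4post mouse 5 included. In TRAJ22 the clonotypes of 10 or more reads numbered 28 over the 8 mice and held a mean of 9.89% of its reads in the CTXpre group and 17.3% in the CTXpre/CD4post group. In TRAJ11 they numbered 6 and held 7.78% and 22.1%. For TRAJ38 and TRAJ28 there were none. In CTXpre/CD4post mouse 3, 1 clonotype of 100 reads supplied 42.0% of the TRAJ11 reads, and in mouse 5, 1 clonotype of 100 reads supplied 43.7% of the TRAJ58 reads. Of 48637 different clonotypes, defined by CDR3 bases, V and J, 6.49% were in more than 1 mouse and 13 in all 8. This share ranged from 1.62% for TRAJ35 to 9.58% for TRAJ12, with 9.26% for TRAJ22. The clonotypes that CTXpre/CD4post mice 1 and 2 shared are included in these values.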

How the data were processed

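TCR α-chain libraries of 8 mice were used, 1 per mouse, and the β-chain libraries were used only to count J segment names. The authors amplified the TCR from RNA by nested PCR, aligned the reads in MiXCR, extracted the chains in VDJtools and reduced every library to 10000 reads. The counts they deposited are reads per clonotype. The labels name the build mm10, and the version and reference of MiXCR are not given in the sources used here. Segments were summed by J name, as reads and as clonotypes. Down-sampling fixed the depth at 10000 reads, so a count of 0 limits a share to 3 reads of that total. Intervals of shares are Wilson 95% intervals.

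Groups and replicate numbers came from the sample labels. edgeR 4.0.16 (R 4.3.3, TMM) was run on segments that had 10 or more reads, or clonotypes, in 3 or more mice, and all 43 passed. Its quasi-likelihood test was adjusted by Benjamini-Hochberg, with a threshold of 0.05. The test returns no standard error. Those given with edgeR fold changes are the size of the log2 fold change divided by the square root of the F statistic. DESeq2 1.42.0 was an alternative. For block shares, mean TRAJ numbers and the share of TRAJ4 clonotypes the exact two-sided Mann–Whitney test was used. The V ends within mice were compared by the exact two-sided sign-flip test. Both were run with Python 3.11.15, pandas 2.3.3 and scipy 1.17.1. The functions were tested on made-up values, and the edgeR step on counts with known changes. It recovered 61.3% of segments with a 1.5-fold change in reads and 94.4% in clonotypes, and 98.8% and 100% of those with a 2-fold change, among 43 segments. The simulated counts had 1 dispersion for all segments (0.0259 for reads, 0.00301 for clonotypes) and the same mean in every mouse of a group. In the data the coefficient of variation in reads ran from 5.84% to 44.2%, so recovery of the more variable segments was not measured. Coordinates and sequences were taken by name from the GENCODE vM21 annotation and RefSeq GRCm38.p6. The heptamer and nonamer were placed at the best match to CACTGTG and GGTTTTTGT.

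The segments, blocks and tests were chosen with earlier results of these data known. Named were the 6 most and 6 least used segments, all segments without a read, those with an adjusted p under 0.05, the 3 largest increases and falls in reads, TRAJ18, TRAJ33, the border segments and the V families with extreme mean TRAJ numbers. Other segments were named after their values were seen. Alternatives were the tool, the normalization, the filter, the block borders, abundant and single-read clonotypes, the replicate block and each mouse left out.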

Additional observations from a re-analysis of the deposited data

Results flagged for a closer look

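In the CTXpre/CD4post group, 27 values were checked for a mouse far from its group, and 2 passed the limit, where chance gives about 1 in 20 for independent values. Some segments were checked because of large changes in these same data, TRAJ24 among them, and shares within a mouse depend on each other. That rate therefore does not hold strictly here. Segments under TRAJ20 held 26.0% of the clonotypes in CTXpre/CD4post mouse 3, against 21.4% in the nearest of the other 4 mice. TRAJ24 held 2.13% of the reads in CTXpre/CD4post mouse 5, against 1.30% in the nearest mouse.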

How the results depend on the processing

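The difference between the V ends kept its direction and its side of the threshold in 12 of 12 alternatives, from -24.1 to -23.5 with each mouse left out (exact sign-flip test, p = 0.0156, the smallest possible with 7 mice). The count of segments with changed reads was 0 in 14 of 14 alternatives. The count with changed clonotypes, 1 with edgeR, was 0 with DESeq2, with the replicate block, without clonotypes of 10 or more reads and without clonotypes of 1 read, and ranged from 0 to 3 with each mouse left out. The causes were not tested. The share of reads in TRAJ40 and above, 0.0942 percentage points higher in the CTXpre/CD4post group, turned to -0.308 without clonotypes of 1 read, to -0.265 with the borders moved up by 5 and to -0.266 with the replicate block, and ranged from -0.44 to 0.664 with each mouse left out. It passed no test under any of these settings. The 5 further block shares, the mean TRAJ number and the group difference between the V ends changed neither direction nor call. With a mouse left out, the exact Mann–Whitney test cannot go below p = 0.0571 (3 mice against 4) or p = 0.0952 (2 against 5). With the replicate block, the exact sign-flip test cannot go below p = 0.25. In these settings no group difference of this kind could pass the threshold, so the unchanged call there was fixed in advance. The log2 fold change of TRAJ24 clonotypes, -0.0437, turned to 0.0738 without clonotypes of 1 read and ranged from -0.137 to 0.0482 with each mouse left out. The correlations over segments of the deviations of same-numbered mice were 0.04, -0.32 and -0.03 for reads and 0.42, -0.34 and 0.22 for clonotypes. Not every pair deviated together, nothing in the labels ties the numbers to a shared litter or day, and the block was therefore not taken as the main design. With it, TRAJ4 clonotypes had a log2 fold change of -0.37 (edgeR, adjusted p = 0.453). With 10000 reads per mouse, segments near 0.5% of the reads rest on 33 to 95 reads each, and 5 mice against 3 limit the exact tests. The block fit of the group difference between the V ends was added after seeing the data.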
